A study of Rattus norvegicus with 4 samples.

Results

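The genes described here carry signals inward from G protein-coupled receptors: G protein alpha, beta and gamma subunits, adenylyl cyclases, cyclic nucleotide phosphodiesterases, regulators of G protein signalling (RGS proteins), receptor kinases and beta-arrestins. They were chosen by symbol from the array's annotation, taking probe sets (groups of short oligonucleotides for 1 transcript) with a single gene symbol and, for each gene, the probe set with the highest mean over the 4 arrays. Rgs9, Adcy5 and Pde1b, genes typical of the striatum, were left out by the rule. This gave 52 genes, represented by 77 probe sets, of 4736 genes with a probe set of 1 symbol.

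Expression was measured on Affymetrix rat genome U34 arrays (array A of the set) in the cortex of the stroke hemisphere, from ovariectomised female rats that all underwent a 2 h middle cerebral artery occlusion by a filament inside the vessel. The 2 groups were 17beta-estradiol replacement (2 pools, estradiol 1 and estradiol 2) and placebo (2 pools, placebo 1 and placebo 2); each pool combined RNA of 3 animals, 6 animals per group, so the values of single animals were not measured. The design names tissue taken 6 and 24 h after occlusion, and no label states in words which time these arrays hold, so no time is attached to the values. No unoperated, intact or contralateral tissue was analysed here, and age and strain are not given in the sources used here.

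A heterotrimeric G protein is an alpha subunit, which binds GTP when a receptor is activated, and a tightly joined beta-gamma pair. Gs and the related Golf stimulate adenylyl cyclase to make cAMP, Gi, Go and Gz inhibit it or act on ion channels through their beta-gamma pair, and Gq acts through phospholipase C. RGS proteins shorten the signal by speeding GTP hydrolysis, phosphodiesterases break cAMP and cGMP down, and G protein-coupled receptor kinases with arrestins uncouple the receptor itself. In brain, this machinery sets how neurons and glia answer dopamine, noradrenaline, serotonin, adenosine and many peptides.

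Rising cAMP activates CREB, which binds the cAMP response element, and estrogen receptors bind a palindromic element, so the promoters of these genes were searched for both as a description. RefSeq promoter sequences (build GRCr8, 250 bases before to 50 bases after each annotated start) were held for 37 of the 52 genes, at 48 starts. On either strand, the full element TGACGTCA lay in 1 of the 37, Gnao1 (2.08% of the 48 starts, against 1.83% of 33469 starts of all genes). Its core TGACG, which the full element contains, lay at 12 starts of 10 genes (25% of starts against 21.2%). No start of these genes held the palindromic estrogen response element, which 0.0269% of all starts held. A match is a description of letters, not evidence of binding. The windows below, written 5′ to 3′ along the gene's strand with the match in capitals, are shown for Gnao1, with the only full element, and for an alpha subunit (Gnas), a beta subunit (Gnb2) and an RGS gene (Rgs4) described further on; CGTCA is the core on the opposite strand.
Gnao1, chr19:11198531-11198578, minus strand, the match beginning 121 bases before the start: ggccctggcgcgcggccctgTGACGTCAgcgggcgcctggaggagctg
Gnas, chr3:183489634-183489678, plus strand, the match just after the start: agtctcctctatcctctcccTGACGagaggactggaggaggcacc
Gnb2, chr12:24795726-24795770, plus strand, 33 bases before the start: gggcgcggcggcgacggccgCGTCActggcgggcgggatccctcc
Rgs4, chr13:84476013-84476057, minus strand, 153 bases before the start: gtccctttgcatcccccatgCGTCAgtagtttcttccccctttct

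Array medians lay between 55.0 and 57.8 intensity units, so the arrays sat on 1 common scale, and the ratios of 3' to 5' probe sets lay between 1.30 and 1.45 for GAPDH and between 1.28 and 1.58 for actin. The highest of 23 control probe sets for foreign transcripts (between 30.1 and 37.8) was taken as the background of each array. Neuronal markers summed to 9309 to 12176 and astrocyte markers to 10756 to 12051 over the 4 arrays. Oligodendrocyte markers summed to 16351 and 12394 with estradiol and to 20388 and 13094 under placebo. All 5 of them read higher in pool 1 than in pool 2 of both treatments, as did 1276 of all 5244 probe sets tested. Markers of microglia and macrophages summed to 200 and 180 with estradiol and to 200 and 266 under placebo. Choroid plexus and meningeal markers summed to 694 and 4950 with estradiol and to 8952 and 456 under placebo. The high sums of estradiol 2 and placebo 1 were mostly Ttr (165.3 and 4311.9 against 8034.3 and 74.3), and Igf2 was also highest in those pools. Igfbp2 and Kl did not follow: estradiol 2 read below estradiol 1 in both (185.1 against 260.4 and 40.6 against 64.1). All 5 vascular markers tested lay below 0 (3 of them without placebo 1), 2 of them at an unadjusted p below 0.05 in limma. Markers of the striatum, which lies beneath the dissected cortex, summed to 2849 and 2673 with estradiol and to 1927 and 2048 under placebo. The higher sums were mostly Tac1 (380.6 and 408.4 against 108.3 and 116.0) and Penk (640.9 and 526.0 against 174.3 and 279.0). Of the 10 on the array 9 were tested, with a median log2 fold change of 0.45, and Drd2 was at background. Above 0 lay 6, with Rgs9, Adcy5 and Pde1b among them. In limma 3 were higher at an unadjusted p below 0.05, as were 1.74% of all probe sets. Pdyn, Adora2a and Chat lay below 0 (-0.16, -0.03 and -0.44). Blood cell markers summed to 1178 and 2594 in the estradiol pools and to 3883 and 3500 in the placebo pools. These sums were mostly Hbb (958.7 and 2309.8 against 3517.3 and 3055.2). All 4 tested had both estradiol pools below both placebo pools, as did 14.3% of all probe sets. In limma 2 of the 4 were lower at an unadjusted p below 0.05, as were 1.33% of all probe sets. The part of these tissue differences in the results below was not tested. In pooled tissue, fewer cells of a type and less RNA per cell cannot be told apart.

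Of the 52 genes, 31 read above background on all 4 arrays, 11 on some and 10 on none. The filter on low values (a mean of at least 37.5 over the 4 arrays) left 33 for testing: 7 of 9 alpha subunits, 7 of 10 beta and gamma subunits, 2 of 6 adenylyl cyclases, 5 of 11 phosphodiesterases, 6 of 8 RGS proteins and 6 of 8 receptor kinases and arrestins. The question put to them was whether estradiol replacement altered their transcript level in the injured hemisphere. The answer at this size of experiment was that no difference passed the test. With limma and Benjamini-Hochberg adjustment over all 5244 probe sets tested, 0 of the 33 were called, as were 0% of all probe sets, and the lowest adjusted p among the 33 was 0.998. At an unadjusted p below 0.05 limma placed 1 of the 33 lower with estradiol (Gnb1) and 0 higher, where 1.33% and 1.74% of all probe sets lay. For a single gene, 2 pools against 2 cannot give an exact permutation p below 0.333.

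By sign, 13 of the 33 log2 fold changes (estradiol minus placebo) lay above 0 and 20 below. Their median was -0.07 and their range -0.75 to 0.49, against a median of 0.01 over all probe sets. The size of the differences was that of the array as a whole: the median absolute log2 fold change was 0.18 for these genes and 0.18 for all probe sets, and 9.09% against 10.3% exceeded 0.5. Both estradiol pools lay above both placebo pools for 3 of the 33 (Gnai2, Gng10 and Pde4b), where 15.4% of all probe sets did so, and below them for another 3 (Gnb1, Adcy2 and Grk1), where 14.3% did. The typical standard error, 0.25 on the log2 scale, was larger than most of the differences.

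**Figure D1:**
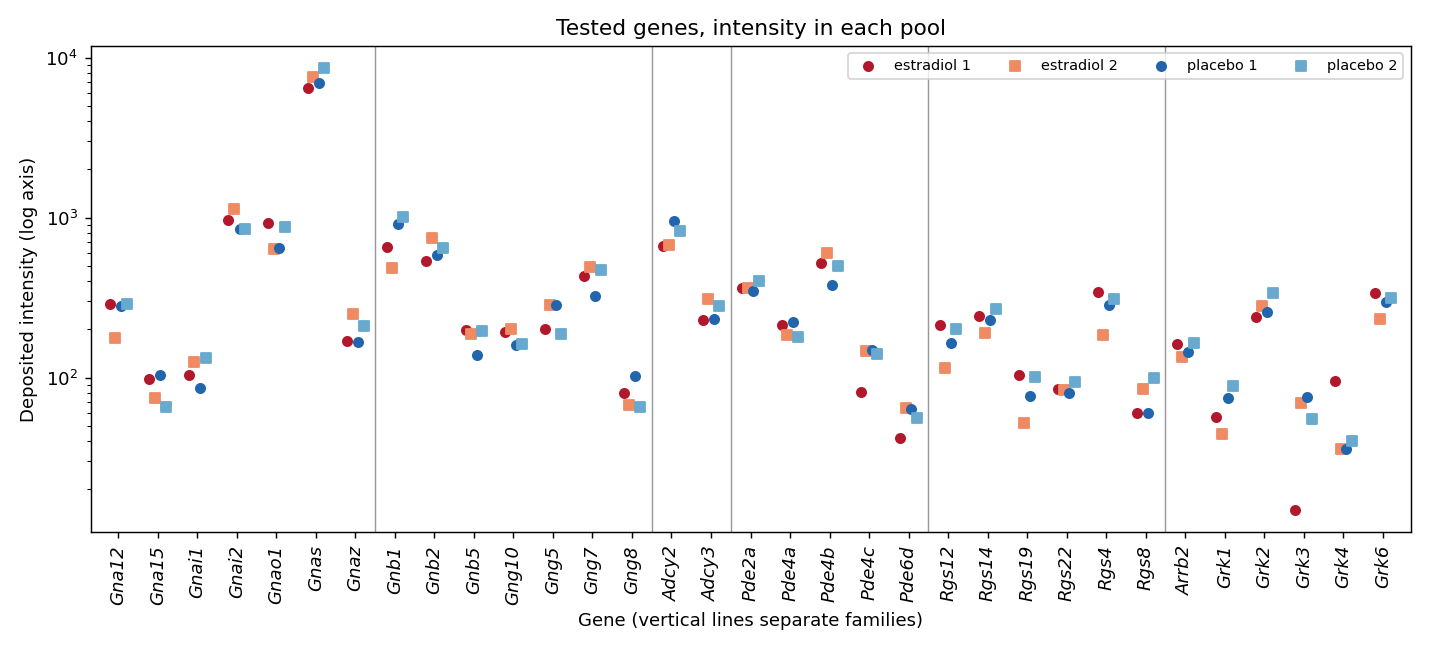
Deposited intensity (log axis) of the 33 tested genes in each of the 4 pools, ordered by family. Circles are pool 1 and squares pool 2 of each treatment; Gnb1, Adcy2 and Grk1 have both placebo points above both estradiol points, Gnai2, Gng10 and Pde4b the reverse, and the treatments overlap for every other gene. Levels of different genes come from different probes and are not comparable.

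Among the alpha subunits, Gnas, which encodes Gs alpha, the stimulator of adenylyl cyclase, read 6420.5 and 7524.0 in the estradiol pools and 6902.8 and 8595.1 in the placebo pools. The groups overlapped, and limma gave a log2 fold change of -0.15 ± 0.20 (SE; 95% interval -0.62 to 0.32). The other 3 Gnas probe sets gave 0.07, -0.07 and 0.07, so the direction was not shared by its probe sets. The first of these 3 is named on the array for the same sequence record as the brightest set. Gnas is an imprinted locus with several alternative transcripts, and the annotation used here does not say which of them each probe set reads.

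The inhibitory alpha subunits had log2 fold changes between 0.04 and 0.30, and none passed the test. Gnai2, the broadly expressed Gi alpha, read 969.3 and 1137.7 with estradiol and 851.6 and 848.8 with placebo. Both estradiol pools were higher, the placebo pools nearly coincided, and the log2 fold change was 0.30 ± 0.19 (SE; 95% interval -0.15 to 0.75; limma, unadjusted p = 0.164, adjusted p = 0.998). A second Gnai2 probe set, named on the array for the same sequence record, went the other way. It read 702.8 and 771.5 against 1019.8 and 717.0 (log2 fold change -0.21). Placebo 1 stood above the rest there, and without it the value was 0.04. The dimmest of the 3 gave 0.01, and the average of the probe sets 0.03. Gnao1, the alpha subunit of Go, abundant in neurons, read 928.2 and 639.5 with estradiol and 642.0 and 878.9 with placebo. Its spread ran across the treatments, with a high and a low pool in each, and the log2 fold change was 0.04 ± 0.26. Gnai1, another Gi alpha, read 104.5 and 124.3 against 86.5 and 132.4 (0.08 ± 0.27), with both estradiol values inside the placebo pair.

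Gnaz encodes Gz alpha, which also inhibits adenylyl cyclase, and read 168.6 and 250.2 with estradiol and 167.0 and 208.7 with placebo (0.13 ± 0.26). Its dimmer probe set, under the filter, read 33.1 and 62.0 against 20.9 and 32.9, with estradiol 1 and placebo 1 at background. The average of the probe sets gave 0.34. Gna12, an alpha subunit of the G12 class, read 287.0 and 177.9 against 278.7 and 289.8. Estradiol 2 alone was low, so that the log2 fold change of -0.31 ± 0.26 became 0.01 without that pool. Gna15, a Gq-class subunit best known from blood-forming cells, read 98.2 and 74.6 against 104.4 and 65.7 (0.04 ± 0.29), again with overlapping groups.

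Gnb1, the most widely used beta subunit, had the largest log2 fold change of the 33 on the scale used, log2(intensity + 16); with an offset of 1, Grk3 was further from 0 (-0.98 against -0.76). It read 656.2 and 486.5 in the estradiol pools (mean 571 ± 120, SD, n = 2) and 907.8 and 1012.4 in the placebo pools (960 ± 74.0). Both estradiol pools lay below both placebo pools, and with any single pool left out the log2 fold change stayed between -0.96 and -0.54. In limma it was -0.75 ± 0.22 (SE; 95% interval -1.26 to -0.23), with an unadjusted p of 0.0102 and an adjusted p of 0.998. The other Gnb1 probe sets did not show that difference. The next brightest, named on the array for the same sequence record, read 785.7 and 593.8 against 837.8 and 738.4 (-0.20 ± 0.22; 95% interval -0.71 to 0.31), with overlapping groups. The dimmest read 52.0 and 65.3 against 26.3 and 44.4 (0.56 ± 0.35; 95% interval -0.25 to 1.37), in the opposite direction and with placebo 1 at background. With its probe sets averaged, Gnb1 was at -0.13.

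The other beta subunits showed smaller values. Gnb2, a second widespread beta, read 533.5 and 744.4 with estradiol and 585.4 and 641.9 with placebo, the placebo pair lying inside the estradiol pair (0.04 ± 0.23). Gnb5, the divergent beta that partners a branch of the RGS family, read 197.0 and 186.1 against 138.5 and 194.5. Placebo 1 was low and the other 3 pools were close together, and the log2 fold change of 0.20 ± 0.24 was -0.02 without placebo 1.

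Gamma subunits anchor the complex to the membrane. Gng10, a broadly expressed gamma, read 193.6 and 201.8 with estradiol and 159.0 and 163.0 with placebo. Within each treatment the pools nearly coincided and the groups did not overlap, giving 0.27 ± 0.21 (95% interval -0.22 to 0.76; limma, unadjusted p = 0.234, adjusted p = 0.998). Gng7, the gamma subunit that pairs with Golf in the striatum, read 428.4 and 488.5 against 324.0 and 471.1 (0.22 ± 0.24). Placebo 1 was the lowest pool and without it the value was -0.04. Its other probe set read 110.1 and 107.5 against 99.9 and 104.8 (0.08).

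Gng5, also broadly expressed, read 202.6 and 282.3 with estradiol and 282.9 and 188.2 with placebo (0.05 ± 0.27), each treatment holding a high and a low pool. Gng8, a gamma first known from olfactory tissue, read 80.0 and 67.1 against 102.3 and 65.7 (-0.14 ± 0.29). Placebo 1 was its highest pool, and without it the sign turned to 0.13.

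**Figure D2:**
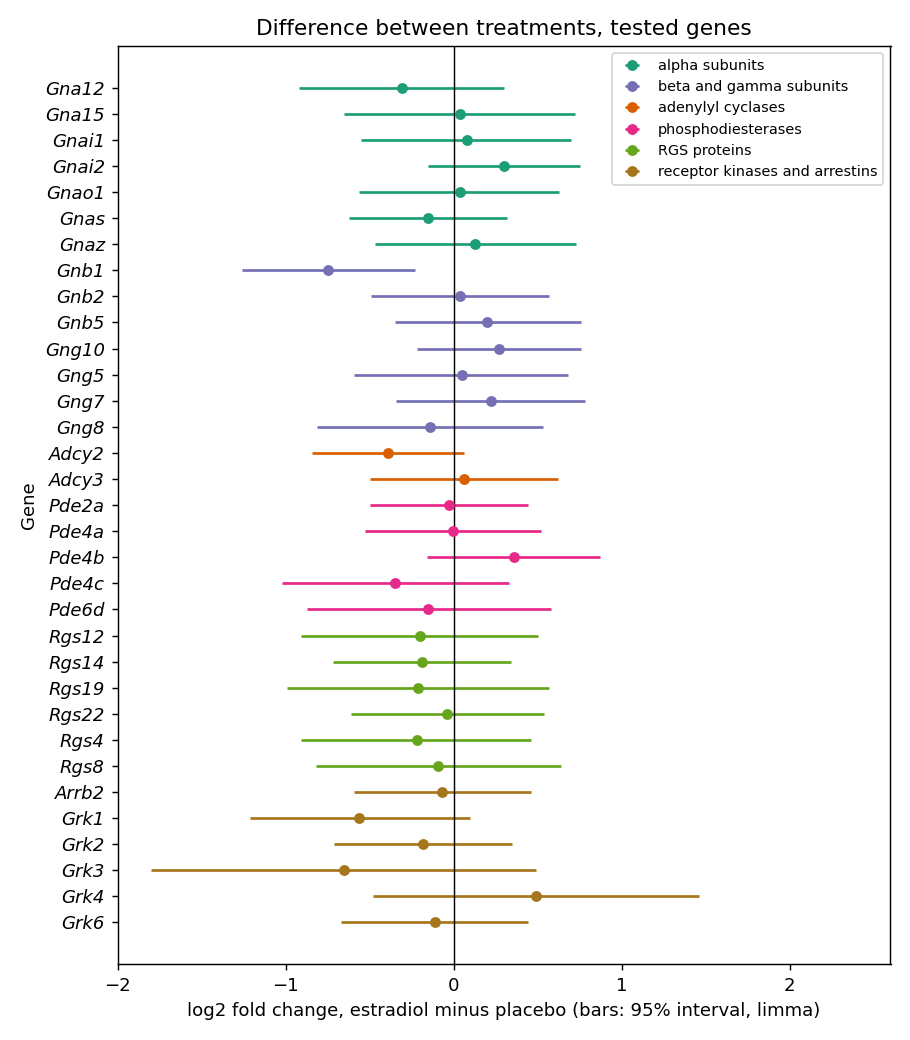
Log2 fold change (estradiol minus placebo) of each of the 33 tested genes with its 95% interval from limma, coloured by family. Only the interval of Gnb1 (-1.26 to -0.23) leaves out 0. All 6 RGS points lie left of 0, between -0.22 and -0.04, with intervals that span it. Without estradiol 2, 3 of those 6 turn above 0. Rgs9, left out by the rule and not drawn, was at 1.23.

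Of the enzymes that make cAMP, Adcy2 and Adcy3 passed the filter. Adcy2, a cyclase that beta-gamma pairs can stimulate together with Gs, read 667.5 and 675.6 in the estradiol pools (672 ± 5.73, SD, n = 2) and 945.6 and 826.8 in the placebo pools (886 ± 84.0). Both estradiol pools were lower, and the difference kept its sign with each pool left out (-0.48 to -0.29). In limma it was -0.39 ± 0.19 (95% interval -0.84 to 0.06), with an unadjusted p of 0.0813 and an adjusted p of 0.998. Adcy3, the cyclase of olfactory neurons and neuronal cilia, read 228.9 and 311.0 against 231.1 and 282.1 (0.06 ± 0.24), with the placebo pair inside the estradiol pair.

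Phosphodiesterases break cAMP and cGMP down, and Pde4b alone of the 5 tested had groups without overlap. It encodes a cAMP-specific phosphodiesterase prominent in brain and immune cells, and read 520.9 and 599.8 with estradiol and 379.4 and 494.8 with placebo. Both estradiol pools were higher and the log2 fold change was 0.36 ± 0.22 (95% interval -0.16 to 0.87; limma, unadjusted p = 0.147, adjusted p = 0.998). It was 0.17 without placebo 1, the lowest pool, and 0.54 without placebo 2. A second Pde4b probe set gave 0.13. The dimmest tested one read 20.5 and 53.4 against 99.5 and 90.0, in the opposite direction, with estradiol 1 at background (-1.14 ± 0.37; limma, unadjusted p = 0.0159, adjusted p = 0.998).

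Pde4a, its close relative, read 214.6 and 184.2 with estradiol and 221.7 and 179.0 with placebo, the estradiol pair lying inside the placebo pair (-0.0029 ± 0.23; 95% interval -0.53 to 0.52). Its dimmer probe set read 69.2 and 68.9 against 24.1 and 41.7. Here the estradiol pools were higher and placebo 1 was at background, with 0.82 ± 0.34 (limma, unadjusted p = 0.0413, adjusted p = 0.998). Both relatives have transcripts with alternative starts, and which transcripts the probe sets read was not determined.

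Pde2a, which cGMP activates to hydrolyse cAMP, stayed close over the 4 pools, at 365.2 and 363.1 against 349.5 and 398.8 (-0.03 ± 0.20; 95% interval -0.50 to 0.44). Pde4c, a further cAMP-specific member, read 81.3 and 147.3 against 148.8 and 139.6. Estradiol 1 alone was low, so that the log2 fold change of -0.35 ± 0.29 was 0.03 without that pool. Pde6d, named as a photoreceptor phosphodiesterase subunit but acting as a carrier of prenylated proteins, read 42.2 and 64.2 against 63.5 and 56.2 (-0.15 ± 0.31), with overlapping groups.

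**Figure D3:**
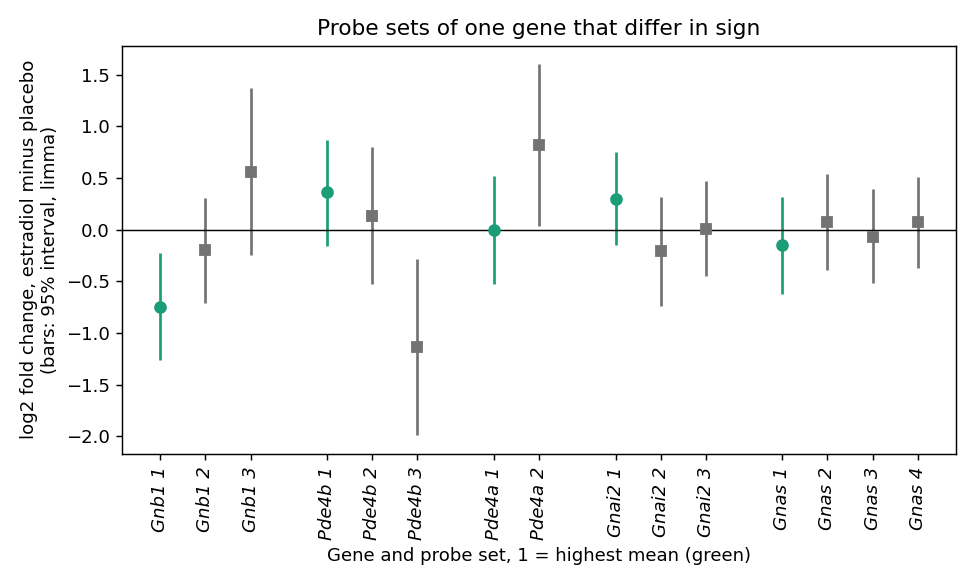
Log2 fold change (estradiol minus placebo) with its 95% interval from limma for every tested probe set of the 5 genes whose probe sets differ in sign, numbered from the highest mean (1, green, the set that stands for the gene). For Gnb1 the values are -0.75, -0.20 and 0.56, and for Pde4b 0.36, 0.13 and -1.14.

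Across the 19 genes with several probe sets, 14 had more than 1 tested. The sign was the same within 9 of them and differed within 5, namely Gnai2, Gnas, Gnb1, Pde4a and Pde4b.

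The 6 tested RGS genes of this set all lay below 0, with a median of -0.20 and a range of -0.22 to -0.04. Of all probe sets, 48.4% lay below 0. The whole RGS family was not on that side: Rgs9, which the rule left out, was also tested and lay at 1.23. That value was 0.22 without estradiol 2, the only pool where Rgs9 was above background. None of the 6 had an unadjusted p below 0.05 in limma (lowest 0.428), and none had groups without overlap. Without estradiol 2 the signs of the 6 split into 3 above and 3 below 0. Rgs4, a neuronal RGS protein that acts on Gi and Gq, read 342.8 and 185.0 with estradiol and 283.9 and 311.5 with placebo (-0.22 ± 0.30; 95% interval -0.91 to 0.46). Estradiol 1 was its highest pool and estradiol 2 its lowest, with both placebo pools between them. Without estradiol 2 the log2 fold change was 0.20.

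Rgs12, which also carries a GoLoco motif that binds inactive Gi alpha, read 211.7 and 114.9 against 165.3 and 202.3 (-0.20 ± 0.30; 0.19 without estradiol 2). Rgs19, a regulator of Gi-class subunits, read 103.5 and 51.7 against 76.8 and 100.8 (-0.21 ± 0.33; 0.20 without estradiol 2). In both, as in Rgs4, the estradiol pools were the highest and the lowest of the 4. Rgs14, which shares the GoLoco motif and is known from hippocampal neurons, read 243.6 and 189.8 against 229.5 and 267.5 (-0.19 ± 0.23), with estradiol 2 lowest but the sign kept with each pool left out (-0.36 to -0.02).

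Rgs22, better known from testis, varied little, at 84.4 and 83.8 against 79.8 and 94.1 (-0.04 ± 0.25). Rgs8, a neuronal relative of Rgs4, read 60.1 and 84.8 against 59.9 and 98.9 (-0.09 ± 0.31), with a low and a high pool in each treatment. Its dimmer probe set read 37.9 and 30.8 against 47.0 and 82.6 (-0.65), with estradiol 2 at background.

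Pools of one treatment differed from each other as follows. The log2 difference of estradiol 1 from estradiol 2 was 0.84 for Rgs4, 0.82 for Rgs19, 0.80 for Rgs12 and 0.34 for Rgs14. It was 0.01 for Rgs22 and, the other way, -0.41 for Rgs8. Its median over the 6 was 0.57, against -0.01 over all probe sets. Between the placebo pools the same genes differed by -0.13, -0.33, -0.27, -0.21, -0.20 and -0.60. Estradiol 2 was the lowest array for 4 of the 6 RGS genes and for 25.2% of all probe sets. It was also lowest for 4 of the 6 receptor kinases and arrestins, in Grk4 tied with placebo 1. Elsewhere it was lowest for 2 of 7 alpha subunits, 1 of 7 beta and gamma subunits, and 0 of the cyclases and phosphodiesterases. Over all 33 genes estradiol 2 was lowest for 11 (33.3%). Over all 33 genes, 10 (30.3%; 22.9% of all probe sets) had estradiol pools more than 0.5 apart, and 6 (18.2%; 24% of all probe sets) had placebo pools that far apart.

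**Figure D4:**
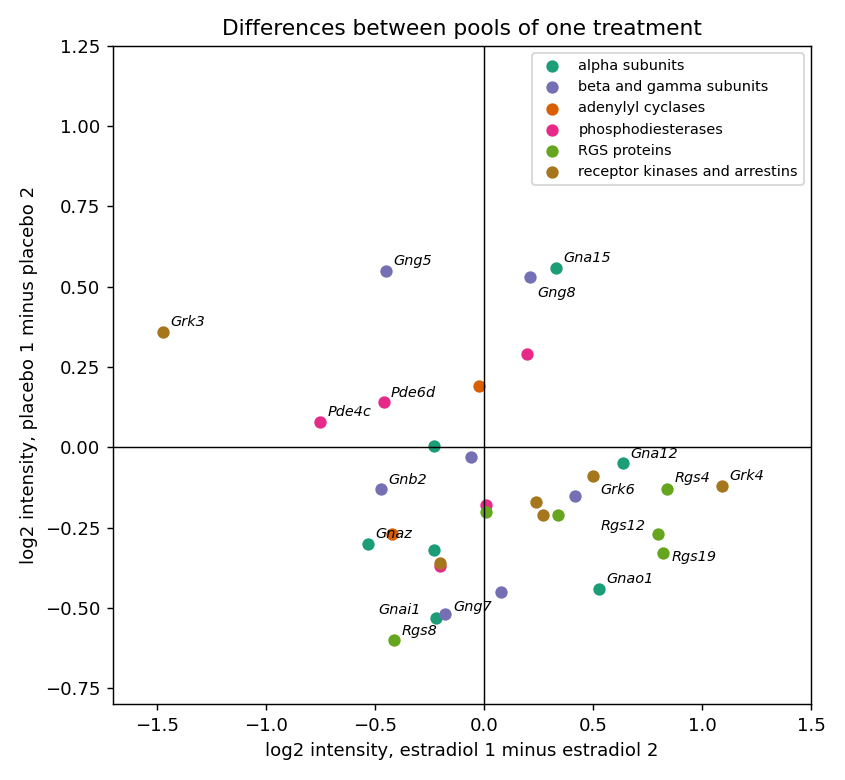
Log2 difference between pools 1 and 2 of the estradiol group (horizontal axis) and of the placebo group (vertical axis) for the 33 tested genes, coloured by family, with the more distant genes named. Grk4 lies furthest to the right (1.09), with estradiol 2 at background, and Rgs4, Rgs12 and Rgs19 lie between 0.80 and 0.84. Grk3 lies far to the left with estradiol 1 at background.

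Receptor kinases phosphorylate the activated receptor and arrestins then bind it. Grk2, the ubiquitous kinase, read 240.4 and 278.3 with estradiol and 258.2 and 336.0 with placebo (-0.18 ± 0.23; 95% interval -0.71 to 0.35). Its dimmer probe set gave -0.43. Grk6, also widely expressed, read 338.1 and 233.9 against 296.2 and 315.5, with the placebo pair inside the estradiol pair (-0.11 ± 0.24). Arrb2, a beta-arrestin, read 161.6 and 134.6 against 145.4 and 165.6 (-0.07 ± 0.23). Its other probe set read 86.9 and 97.1 against 118.6 and 133.7 (-0.40), where the groups did not overlap.

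Grk1, a receptor kinase of photoreceptors, read 56.9 and 44.4 with estradiol and 74.6 and 89.1 with placebo. Both estradiol pools were lower, and limma gave -0.56 ± 0.28 (95% interval -1.21 to 0.10; unadjusted p = 0.0864, adjusted p = 0.998). All 4 values were above the background of their arrays. Grk3, the close relative of Grk2, read 14.8 and 69.1 against 75.2 and 55.2, with estradiol 1 at background, so that its log2 fold change of -0.65 ± 0.49 was 0.08 without that pool. Grk4, known mainly from testis, read 94.6 and 35.8 against 35.8 and 40.3. Estradiol 2 and placebo 1 were at background there, and the log2 fold change of 0.49 ± 0.42 was -0.06 without estradiol 1.

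For 19 genes the mean lay under the filter and no test was made. Rgs1 and Rgs18 (RGS proteins of blood cells), Adcy4, Adcy6, Gnat3 (the taste G protein gustducin), Gnb3, Gnb4, Pde3b, Pde5a and Pde7a were above background on none of the 4 arrays, which gives only an upper bound on their signal. Adcy8, Arrb1, Gng11 and Pde1c were above it in placebo 1 only, Adcy10 and Grk5 in estradiol 2 only, and Pde3a and Pde4d in estradiol 1 only. Arrb1, the other beta-arrestin, read 13.4 and 5.9 with estradiol and 57.1 and 6.6 with placebo.

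Gnal, the alpha subunit of Golf, which couples dopamine D1 and adenosine receptors to adenylyl cyclase in the striatum, was the only gene of the 19 above background in both pools of a treatment and in neither of the other. It read 34.2 and 59.0 in the estradiol pools, the first just past its array's background of 33.9, and 4.3 and 23.3 in the placebo pools. The geometric mean of the estradiol values was 1.33-fold that of the placebo arrays' backgrounds (37.8 and 30.1), which are a chosen cutoff. Estradiol 1 by itself lay below the background of placebo 1. The share of all probe sets with such a pattern of background was not counted, so it cannot be called particular to Gnal. With no filter on low values limma gave Gnal an unadjusted p of 0.0336 and an adjusted p of 0.999. In that fit 3.86% of all probe sets had an unadjusted p below 0.05. The summed striatal markers given above were also higher in the estradiol pools, mostly through Tac1 and Penk. Of the 9 tested, 6 lay above 0 and 3 below. The part of the striatal markers in the difference of Gnal was not tested.

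**Figure D5:**
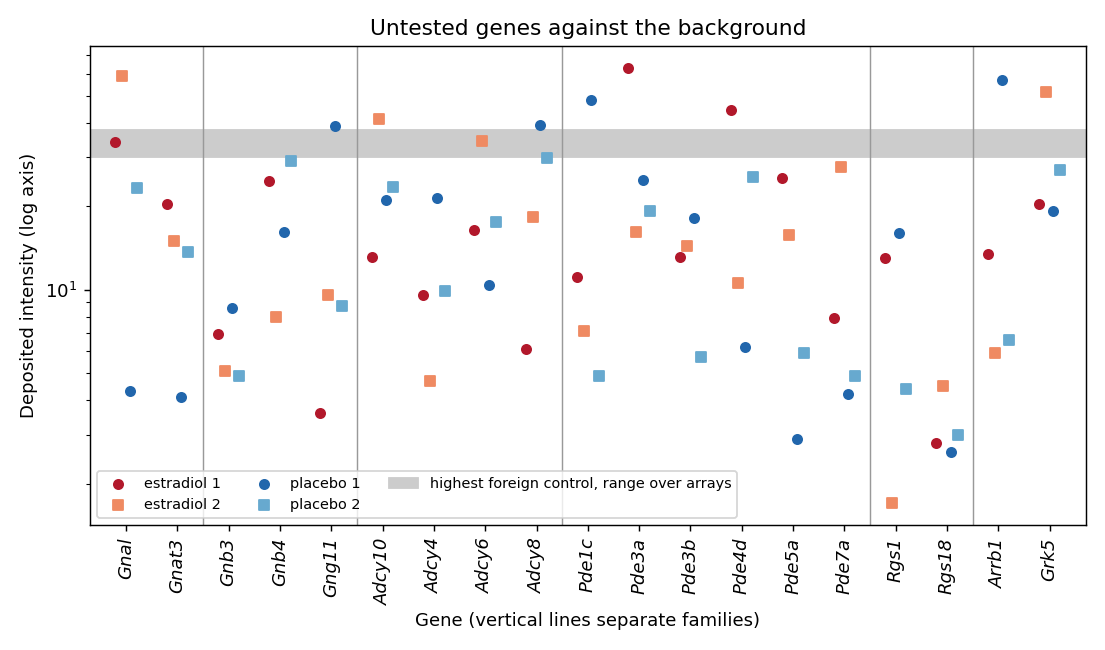
Deposited intensity (log axis) of the 19 genes under the filter in each pool, with the grey band showing the background over the 4 arrays (30.1 to 37.8). Gnal alone has both estradiol points above the background of their own arrays and both placebo points below it.

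The striatal genes left out by the rule read as follows. Adcy5, the main cyclase of the striatum, read 165.0 and 262.3 with estradiol and 151.4 and 178.9 with placebo (log2 fold change 0.31, and 0.003 without estradiol 2). Pde1b, a calcium-activated phosphodiesterase, read 245.0 and 280.3 against 137.0 and 254.5 (0.45, and 0.04 without placebo 1, its low pool). Rgs9, which is enriched in striatal neurons, read 24.3 and 146.4 against 16.2 and 21.0, above background in estradiol 2 alone (1.23, and 0.22 without that pool).

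Other genes of the pathway were taken from lists of known members. Downstream of cAMP (protein kinase A, its anchors and CREB-family factors), 14 of 18 listed genes were on the array and 11 were tested: 5 lay above 0 and 6 below, and limma called 0, with 0 at an unadjusted p below 0.05. Prkacb, a catalytic subunit of protein kinase A, read 864.8 and 1060.2 with estradiol and 636.5 and 818.2 with placebo, groups that did not overlap (log2 fold change 0.40; limma, unadjusted p = 0.109). Crem, a cAMP-responsive transcription factor, read 160.9 and 165.1 against 332.9 and 168.0. Placebo 1 alone was high, and the log2 fold change of -0.50 was -0.04 without it. Downstream of Gq (phospholipase C-beta, inositol trisphosphate receptors, protein kinase C and diacylglycerol kinases), 6 of 11 tested genes lay above 0 and 5 below, with a median of 0.05 and 0 at an unadjusted p below 0.05. Plcb2 read 82.5 and 71.2 against 48.7 and 46.7 (0.54; limma, unadjusted p = 0.0904). Of other regulators 2 were tested, Ric8a, a chaperone of alpha subunits (0.31), and Rack1, a scaffold related to beta subunits (-0.04), neither at an unadjusted p below 0.05.

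Genes that make and read cGMP lay on 1 side: all 5 tested were above 0, as were 51.6% of all probe sets, with a median of 0.32, but limma called 0, with 0 at an unadjusted p below 0.05. Without placebo 1, 4 of the 5 were above 0 and the median was 0.11; without estradiol 1, 4 were. Gucy1b1, a subunit of the nitric oxide receptor guanylyl cyclase, read 323.5 and 339.3 with estradiol and 157.7 and 304.2 with placebo. Placebo 1 was far below the other pools, and the log2 fold change of 0.56 was 0.12 without it. Its partner subunit Gucy1a1 read 136.6 and 160.9 against 98.4 and 136.1 (0.32, and 0.11 without placebo 1). Prkg2, a cGMP-dependent protein kinase, read 67.2 and 57.0 against 30.4 and 43.5 (0.57), with placebo 1 at background. The remaining genes tested lay nearer 0 and turned sign with 1 pool left out. Npr1 was at 0.12 (-0.19 without estradiol 1) and Npr2 at 0.10 (-0.04 without placebo 1).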

How the data were processed

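The authors deposited a linear intensity for each probe set on each array, already scaled to a common level (trimmed means 150.18 to 150.2). The program used for this was not given in the sources used here. Of 8799 rows, 59 controls were left out; 7006 of the other 8740 had 1 gene symbol. The 52 gene identifiers were all found in a RefSeq table (GRCr8), which changed 0 symbols.

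Values were tested as log2(intensity + 16) with limma 3.58.1 (R 4.3.3; lmFit, eBayes with an intensity trend, two-sided) on probe sets at or above the 40th percentile of mean intensity, with Benjamini-Hochberg adjustment over all 5244. Fold changes are on that scale, which understates low genes. The code was tested on simulated data with changes larger than any found in these genes. That checks the code and not its power for small differences. Arrays have no read depth; their number limits the precision.

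Members and lists were chosen with earlier results of these data known. Genes were named by unadjusted p, by the 3 highest, 3 lowest and 3 brightest per family, and by probe sets differing in sign; others are named where a count needed them. Alternatives changed the offset, filter, scaling, trend, probe set rule, replicate block and each pool.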

Additional observations from a re-analysis of the deposited data

How the results depend on the processing

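No alternative (offset, filter, scaling, intensity trend, probe set rule, replicate block or a pool left out) brought an adjusted call in limma, among these genes or over all probe sets, and the lowest adjusted p of any of these genes over all fits was 0.956. No label says that a pool number marks anything shared between the treatments, so the numbers were not taken as pairs. The same-numbered pools' deviations correlated at 0.0363. With the replicate block 0 were called, at a median of -0.07, and in this balanced design a block cannot move a difference. The median ran from -0.15 to 0.0026 with single pools left out. In limma the count of genes at an unadjusted p below 0.05 was 4 with no filter (3.86% of all probe sets; Gnb1, Gnal, Adcy8, above background on 1 array, and Pde5a, on none), 3 without estradiol 2 (2.78%; Pde4c, Grk3 and Grk4), 0 without placebo 2 (4.27%) and 0 with a gene's probe sets averaged (3.08%). Signs turned for Gnas with quantile normalization (0.01) and for Pde4a (0.41) and Pde4b (-0.07) with averaged probe sets. Averaging also left Gnb1 at -0.13, Gnai2 at 0.03 and Gnaz at 0.34. Averaging weighs all probe sets of a gene equally, also those under the filter. Why probe sets of 1 gene differed was not tested. Of the 33 tested genes 7 (21.2%) kept their sign with each pool left out, against 42.8% of all probe sets, among them Gnai2 (0.19 to 0.41), Gng10 (0.24 to 0.30), Pde4b (0.17 to 0.54) and Grk1 (-0.69 to -0.42). The other log2 fold changes ranged, with single pools left out, as follows: Adcy3 -0.15 to 0.27, Arrb2 -0.18 to 0.05, Gna12 -0.63 to 0.01, Gnai1 -0.19 to 0.34, Gnao1 -0.23 to 0.30, Gnas -0.31 to 0.01, Gnaz -0.14 to 0.39, Gnb2 -0.19 to 0.27, Gnb5 -0.02 to 0.43, Gng7 -0.04 to 0.48, Gng8 -0.41 to 0.13 and Grk2 -0.36 to 0.0026. For Gna15 the range was -0.24 to 0.32 and for Gng5 -0.23 to 0.32. For the rest they were Grk3 -1.39 to 0.08, Grk4 -0.06 to 1.03, Grk6 -0.36 to 0.14, Pde2a -0.13 to 0.06, Pde4a -0.15 to 0.14, Pde4c -0.72 to 0.03, Pde6d -0.38 to 0.08, Rgs12 -0.60 to 0.19, Rgs19 -0.62 to 0.20, Rgs22 -0.14 to 0.06, Rgs4 -0.64 to 0.20 and Rgs8 -0.39 to 0.21. Pool 1 or 2 alone, when left with no partner, was assumed to vary like the other group. With 2 pools a group and a median SE of 0.25, a p that misses the threshold does not show that levels were equal.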
